A study of Mus musculus with 4 samples.

Results

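The Hox cluster genes were read through 33 probes, 1 per gene, taken as every probe whose symbol in the series' probe table is Hoxa, Hoxb, Hoxc or Hoxd followed by a number. They are 33 of 16624 probes with 1 gene symbol and a usable spot on all arrays, and of 23473 gene probes in all. The probes cover 9 Hoxa, 9 Hoxb, 7 Hoxc and 8 Hoxd genes. Other genes of the 4 clusters were not analysed here. RNA labelled as dorsal raphe nucleus, the brainstem nucleus rich in serotonergic neurons, was hybridised to 4 single-colour arrays made by Toray. The 4 groups, with 1 array each, were stressed D2LR-KO, stressed D2R-KO, stressed WT and non-stressed WT, where D2R stands for the dopamine D2 receptor and D2LR for its long form. All mice were males of the C57BL/6J background aged 10 weeks, and each array carried RNA pooled from 5 of them. Stress was forced swimming for 6 min on each of 4 days, with tissue taken 12 h after the last swim. There was no non-stressed knockout array, so the knockouts differ from non-stressed WT in stress and in genotype at once, and the cells in which each allele is lost are not given in the labels used here. As each group is a single array, no value carries an error between replicates and none of the differences was open to a test. Precision is limited by the small number of arrays.

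Hox genes encode homeodomain transcription factors that give cells their position along the body axis. They lie in 4 clusters, and genes at the same place in different clusters form a paralogue group, numbered from 1 at the anterior end of expression to 13 at the posterior end. In the embryo the low-numbered groups are switched on up to borders between hindbrain segments and the high-numbered groups in the spinal cord, the trunk and the limbs. Most of the dorsal raphe nucleus arises in the most anterior hindbrain segment, which lies in front of the Hox expression domains, whereas the raphe nuclei of the caudal pons and medulla arise within those domains.

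Intensities are given on the authors' deposited scale, on which the median probe of every array is 25. Differences are given on the log2(signal + 50) scale, which understates those of dim probes, and the calling threshold was 1.5-fold in a comparison with the probe detected on at least 1 of its arrays. Detection required a spot more than 2 SD above the mean of the array's 2736 blank spots. That limit lay between 38.0 and 40.3, and the median spot between 67.1 and 80.1. The stressed WT array stood apart from the rest. Its correlation with the others across the 16624 probes was 0.959 to 0.966, against 0.991 to 0.994 among the other 3. Comparisons that involve this array had between 7.19% and 9.24% of all probes past the threshold in each direction, and those without it had at most 1.47%. The comparisons share arrays, so a value extreme on 1 array enters each of them. Drd2, the targeted gene, had 48.3 in stressed D2LR-KO, 20.9 in stressed D2R-KO, 43.8 in stressed WT and 26.8 in non-stressed WT, and was detected on all 4 arrays. The sources used here do not say where its probe lies relative to the deleted sequence, so the value does not check the genotype.

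Of the 33 Hox probes 24 were detected on all 4 arrays, or 72.7%, against 89.6% of the 16624 probes. A further 6 were detected on some arrays, and Hoxa13, Hoxc8 and Hoxd12 on none. The number detected was 28 in stressed D2LR-KO, 26 in stressed D2R-KO, 28 in stressed WT and 27 in non-stressed WT. By paralogue number, 7 of 7 probes of groups 1 to 4 were detected on all 4 arrays, 8 of 11 of groups 5 to 8, and 9 of 15 of groups 9 to 13. These 3 ranges of paralogue number were set after values had been seen, and a probe's own efficiency also enters its detection. Most Hox probes were dim. They lay below the array median for 27 of 33 in stressed D2LR-KO, 28 in stressed D2R-KO, 27 in stressed WT and 28 in non-stressed WT.

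**Figure D1:**
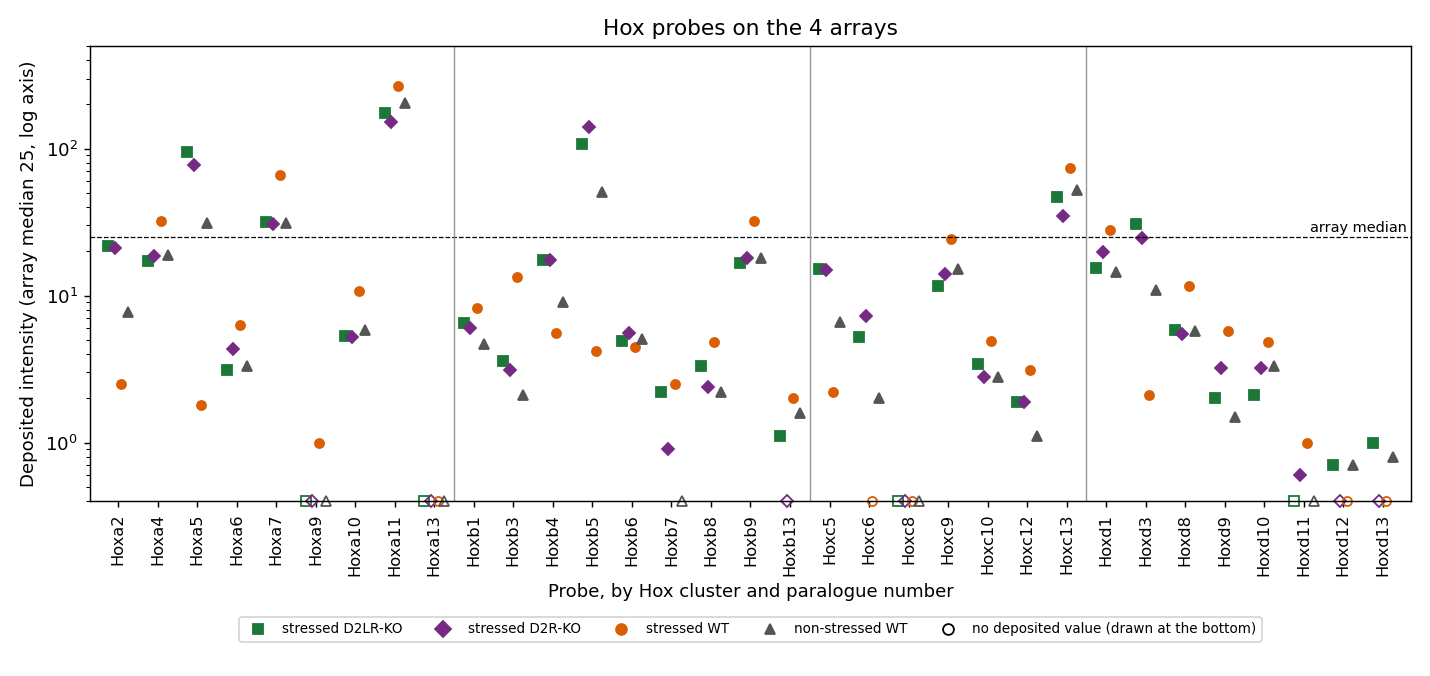
Deposited intensity of the 33 Hox probes on each array (log axis, array median 25), ordered by cluster and paralogue number, with open symbols at the bottom for arrays with no deposited value. Hoxa5, Hoxb5, Hoxa2 and Hoxd3 have their lowest value on the stressed WT array, at 1.8, 4.2, 2.5 and 2.1, whereas Hoxa7, Hoxa11 and Hoxc13 have their highest there, at 65.7, 267.6 and 73.5.

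Each knockout was compared with stressed WT, a comparison of genotypes after the same stress. In each knockout the same 4 genes, Hoxb5, Hoxa5, Hoxd3 and Hoxa2, were at least 1.5-fold higher. For D2LR-KO that was 4 of 30 Hox probes compared, or 13.3%, against a background of 8.64% of all probes. For D2R-KO it was 4 of 29, or 13.8%, against 9.24%. On the lower side D2LR-KO had Hoxa11 and Hoxa7, 2 of 30 or 6.67%, against a background of 8.13%. D2R-KO had Hoxa11, Hoxc13 and Hoxa7, 3 of 29 or 10.3%, against 8.58%. The median log2 difference of the Hox probes was -0.04 for D2LR-KO and -0.06 for D2R-KO, beside -0.01 and 0.00 over all probes. More Hox probes lay below 0 than above it, 20 of 30 in D2LR-KO and 21 of 29 in D2R-KO, against 8290 of 15862 and 8112 of 15878 of all probes. Most of these differences were under 1.5-fold, and the shares past the threshold were of the order of the background. Where only a single array of a comparison detected a probe, the detection rule nearly fixed the sign of its difference.

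Hoxb5, which in the embryo acts in the posterior hindbrain, spinal cord and enteric nervous system, had the largest difference of any Hox probe. Its intensity was 108 in stressed D2LR-KO and 141.1 in stressed D2R-KO, against 4.2 in stressed WT and 50.6 in non-stressed WT. Both knockout arrays were above both WT arrays, and stressed WT was far below the other 3. Relative to stressed WT the log2 difference was 2.05 in D2LR-KO and 2.27 in D2R-KO. Taking the brightness around each spot as background gave 1.47 and 1.85.

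Hoxa5, a paralogue of Hoxb5 needed for lung development and expressed in the hindbrain and cervical spinal cord, had the same order of groups. It read 95.6 in stressed D2LR-KO and 77.2 in stressed D2R-KO, against 1.8 in stressed WT and 31.3 in non-stressed WT. The log2 difference from stressed WT was 2.02 in D2LR-KO and 1.72 in D2R-KO. This value depended on the background more than that of Hoxb5. The brightness around the Hoxa5 spot was 140.6 in D2LR-KO and 113.3 in D2R-KO, against 38.5 in stressed WT and 91.7 in non-stressed WT. With that brightness taken as background the differences were 0.65 and 0.79, still above 1.5-fold.

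Hoxd3, which patterns the hindbrain and the first cervical vertebrae, and Hoxa2, which patterns the anterior hindbrain and the second pharyngeal arch, were the other 2. Hoxd3 had 30.6 in stressed D2LR-KO and 24.8 in stressed D2R-KO, against 2.1 in stressed WT and 10.9 in non-stressed WT. Its log2 difference from stressed WT was 0.96 in D2LR-KO and 0.81 in D2R-KO. Hoxa2 had 21.8 in stressed D2LR-KO and 21.0 in stressed D2R-KO, against 2.5 in stressed WT and 7.7 in non-stressed WT, with log2 differences of 0.71 and 0.68. For both genes the knockout arrays were close to each other and above both WT arrays. Under the background around each spot, Hoxa2 fell below the threshold in both knockouts, at 0.42 and 0.43, and Hoxd3 in D2R-KO, at 0.35.

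The stressed WT readings of these 4 genes were close to the blank spots. Their spots there measured 41.7 to 45.6, against a detection limit of 40.3, while 1 SD of the blanks on that array corresponds to 0.468 on the deposited scale. The plain ratios of deposited intensity, 25.7 and 33.6 for Hoxb5 and 53.1 and 42.9 for Hoxa5 in D2LR-KO and D2R-KO over stressed WT, therefore rest on a small denominator.

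Hoxa11, Hoxc13 and Hoxa7 stood on the other side, with their highest value in stressed WT. Hoxa11, known for its part in forelimb, kidney and uterus development, had 174 in stressed D2LR-KO and 151.8 in stressed D2R-KO, against 267.6 in stressed WT and 203.8 in non-stressed WT. The log2 difference from stressed WT was -0.83 in D2LR-KO and -1.07 in D2R-KO, with the deposited values it was -0.56 and -0.73, and with median scaling -0.56 and -0.63, either of which leaves D2LR-KO short of the threshold. Hoxc13, a regulator of hair keratin genes, had 46.9 in stressed D2LR-KO and 35.0 in stressed D2R-KO, against 73.5 in stressed WT and 52.6 in non-stressed WT, with log2 differences of -0.55 and -0.81. The D2R-KO value was -0.31, under the threshold, with the background around each spot. Hoxa7, which patterns the thoracic region, had 31.8 in stressed D2LR-KO and 30.7 in stressed D2R-KO, against 65.7 in stressed WT and 31 in non-stressed WT. Its log2 difference was -0.74 in D2LR-KO and -0.78 in D2R-KO. For Hoxa7 stressed WT alone was high and the other 3 arrays were nearly equal, whereas for Hoxa11 and Hoxc13 the knockouts also lay below non-stressed WT. Those differences were under 1.5-fold, at -0.20 in D2LR-KO and -0.45 in D2R-KO for Hoxa11, and -0.09 and -0.35 for Hoxc13. With the background around each spot they were -0.40 and -0.16 for Hoxa11, and -0.09 and -0.04 for Hoxc13. Under that background Hoxa7 relative to non-stressed WT had -0.25 in D2LR-KO, -0.22 in D2R-KO and 0.39 in stressed WT.

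**Figure D2:**
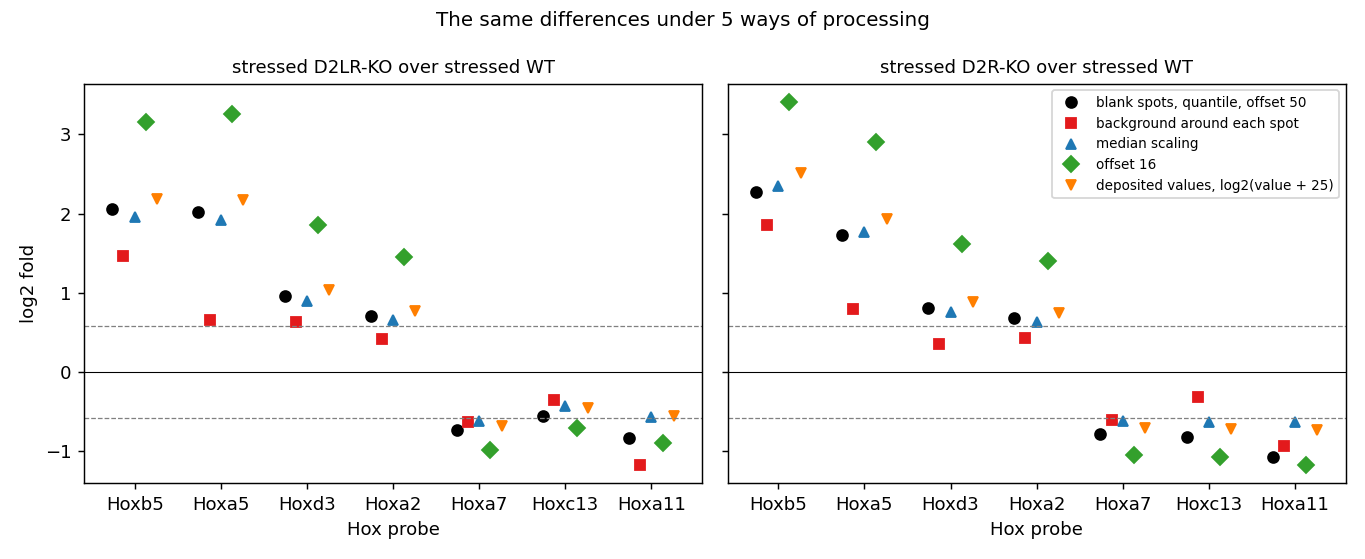
Log2 difference of the 7 named Hox probes from the stressed WT array (stressed D2LR-KO at left, stressed D2R-KO at right) under 5 ways of processing, with dashed lines at 1.5-fold. All 7 keep their direction in both panels; Hoxa5 in D2LR-KO lies at 0.65 with the background around each spot and at 3.26 with an offset of 16.

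The promoters of genes that differed in the same direction, and of those on the other side, are shown so that their sequences can be compared. RefSeq windows of the mouse build GRCm38.p6, reaching from 250 bases before to 50 bases after the annotated start, were available for 5 of the 7 genes. Hoxb5 and Hoxc13 are named only. Capitals mark matches to 4 motifs, each searched on both strands: TGATNNAT, bound by Pbx with Hox proteins; TGACAG, bound by Meis; TTTATG, the core bound by Cdx; and AGGTCA, a half-site of nuclear receptors such as those for retinoic acid. The first 3 windows belong to genes higher in the knockouts than in stressed WT: Hoxa2 at chr6:52164782-52165081 (minus strand), Hoxa5 at chr6:52204538-52204837 (minus strand) and Hoxd3 at chr2:74711743-74712042 (plus strand).
Hoxa2: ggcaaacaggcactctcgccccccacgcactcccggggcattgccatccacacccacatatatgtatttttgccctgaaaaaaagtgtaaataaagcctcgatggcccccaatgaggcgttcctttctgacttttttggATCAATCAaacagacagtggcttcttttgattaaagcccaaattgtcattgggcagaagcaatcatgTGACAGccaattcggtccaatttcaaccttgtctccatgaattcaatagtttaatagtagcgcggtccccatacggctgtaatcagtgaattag
Hoxa5: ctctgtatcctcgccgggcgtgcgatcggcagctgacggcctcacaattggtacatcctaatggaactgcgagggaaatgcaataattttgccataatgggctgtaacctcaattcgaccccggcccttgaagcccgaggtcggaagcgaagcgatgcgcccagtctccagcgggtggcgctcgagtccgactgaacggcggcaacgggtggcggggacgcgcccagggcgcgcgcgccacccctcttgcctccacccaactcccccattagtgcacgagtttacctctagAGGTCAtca
Hoxd3: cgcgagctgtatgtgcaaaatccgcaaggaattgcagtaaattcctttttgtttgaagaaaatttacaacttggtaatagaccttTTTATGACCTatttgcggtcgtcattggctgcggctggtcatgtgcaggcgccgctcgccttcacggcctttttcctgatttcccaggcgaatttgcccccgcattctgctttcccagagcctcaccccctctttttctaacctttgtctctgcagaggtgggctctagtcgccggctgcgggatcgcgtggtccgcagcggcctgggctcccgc
The other windows belong to genes with their highest value in stressed WT: Hoxa7 at chr6:52218524-52218823 and Hoxa11 at chr6:52245761-52246060, both on the minus strand.
Hoxa7: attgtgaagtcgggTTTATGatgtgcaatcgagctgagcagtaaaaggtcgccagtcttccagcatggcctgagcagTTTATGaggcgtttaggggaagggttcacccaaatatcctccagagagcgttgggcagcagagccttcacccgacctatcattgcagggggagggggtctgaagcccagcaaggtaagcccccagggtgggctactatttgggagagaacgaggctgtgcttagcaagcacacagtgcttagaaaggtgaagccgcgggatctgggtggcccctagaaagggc
Hoxa11: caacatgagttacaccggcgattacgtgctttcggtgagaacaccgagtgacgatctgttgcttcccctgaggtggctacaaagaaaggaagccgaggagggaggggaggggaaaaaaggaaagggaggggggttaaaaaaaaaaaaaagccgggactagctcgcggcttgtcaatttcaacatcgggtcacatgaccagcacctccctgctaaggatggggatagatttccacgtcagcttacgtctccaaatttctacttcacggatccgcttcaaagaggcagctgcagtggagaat
The Hoxa2 window held TGATNNAT, read on the opposite strand, at -111 from the start, and TGACAG at -44. Hoxa5 held AGGTCA at 41 bases after the start. Hoxd3 held TTTATG at -165 and, overlapping it on the opposite strand, AGGTCA at -161. Hoxa7 held TTTATG at -236 and -173, and none of these letter strings was in the Hoxa11 window. No motif was shared by the 3 genes that were higher in the knockouts. Among all 32851 promoter windows TGATNNAT was found in 8.85%, TGACAG in 19.2%, TTTATG in 11.9% and AGGTCA in 16.3%. Among the 21 windows of 19 Hox genes they were found in 4, 1, 4 and 5 windows. The windows also differed in CG pairs, with 9 in Hoxa2, 29 in Hoxa5, 20 in Hoxd3, 9 in Hoxa7 and 15 in Hoxa11, beside a median of 15 in the Hox windows and 7 in all windows. A match describes these letters and is not a measured binding site.

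The knockouts were also set against non-stressed WT, a comparison that leaves out the array that stood apart. In each knockout the higher genes were Hoxa5 and Hoxb5, and no Hox gene was lower. For D2LR-KO these were 2 of 28 Hox probes, or 7.14%, against a background of 0.735% higher and 1.39% lower among all probes. For D2R-KO they were also 2 of 28, or 7.14%, against 0.575% higher and 1.47% lower. Hoxa5 had a log2 difference of 1.04 in D2LR-KO and 0.75 in D2R-KO, and Hoxb5 had 0.78 and 1.01. With only the 3 other arrays normalized together, a setting chosen after seeing the data, Hoxa5 had 1.09 and 0.78 and Hoxb5 0.82 and 1.05. With the brightness around each spot as background Hoxa5 had 0.51 in D2LR-KO and 0.65 in D2R-KO, and Hoxb5 0.53 and 0.92, so that neither passed 1.5-fold in D2LR-KO. Just under the threshold stood Hoxd3 in D2LR-KO, at 0.58, and its value in D2R-KO was 0.42. In D2LR-KO it passed with median scaling, at 0.60, with the deposited values, at 0.63, and with an offset of 16, at 0.98. With the background around each spot it did not pass, at 0.45. The median Hox difference was 0.03 in D2LR-KO and 0.02 in D2R-KO, beside 0.00 and 0.01 over all probes. Hoxa5 and Hoxb5 are paralogues, of group 5. Hoxc5, the third gene of that group, had 15.1 in stressed D2LR-KO and 14.9 in stressed D2R-KO, against 2.2 in stressed WT and 6.6 in non-stressed WT. It was higher in the knockouts than in non-stressed WT by 0.31 and 0.30 on the log2 scale, short of the threshold.

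Stressed WT against non-stressed WT asks what differs with swimming in 1 genotype. Hoxa7 and Hoxa11 were at least 1.5-fold higher and Hoxb5 and Hoxa5 at least 1.5-fold lower, 2 of 30 Hox probes or 6.67% on each side. The background was 7.19% of all probes higher and 8.05% lower, so the Hox share was near that of probes at large. The log2 difference was 0.77 for Hoxa7 and 0.62 for Hoxa11, and -1.27 for Hoxb5 and -0.98 for Hoxa5. Hoxa11 had 0.17 with median scaling and 0.35 with the deposited values, and Hoxa5 had -0.14 with the brightness around each spot as background, so the calls of both genes were lost there. Hoxa7 lost its call with the brightness around each spot, at 0.39. The median over Hox probes was 0.07, beside 0.00 over all probes.

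D2LR-KO and D2R-KO were set against each other to ask whether loss of the long form alone differs from loss of the receptor. None of 28 Hox probes was 1.5-fold apart, against a background of 0.651% higher and 0.335% lower among all probes, and with 1 array each this does not show that the genotypes were alike. The Hox differences ran from -0.22 for Hoxb5 to 0.29 for Hoxa5, D2LR-KO over D2R-KO, but with the background around each spot Hoxa5 turned to -0.14 and Hoxb5 had -0.38. The Hox median was 0.01.

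**Figure D3:**
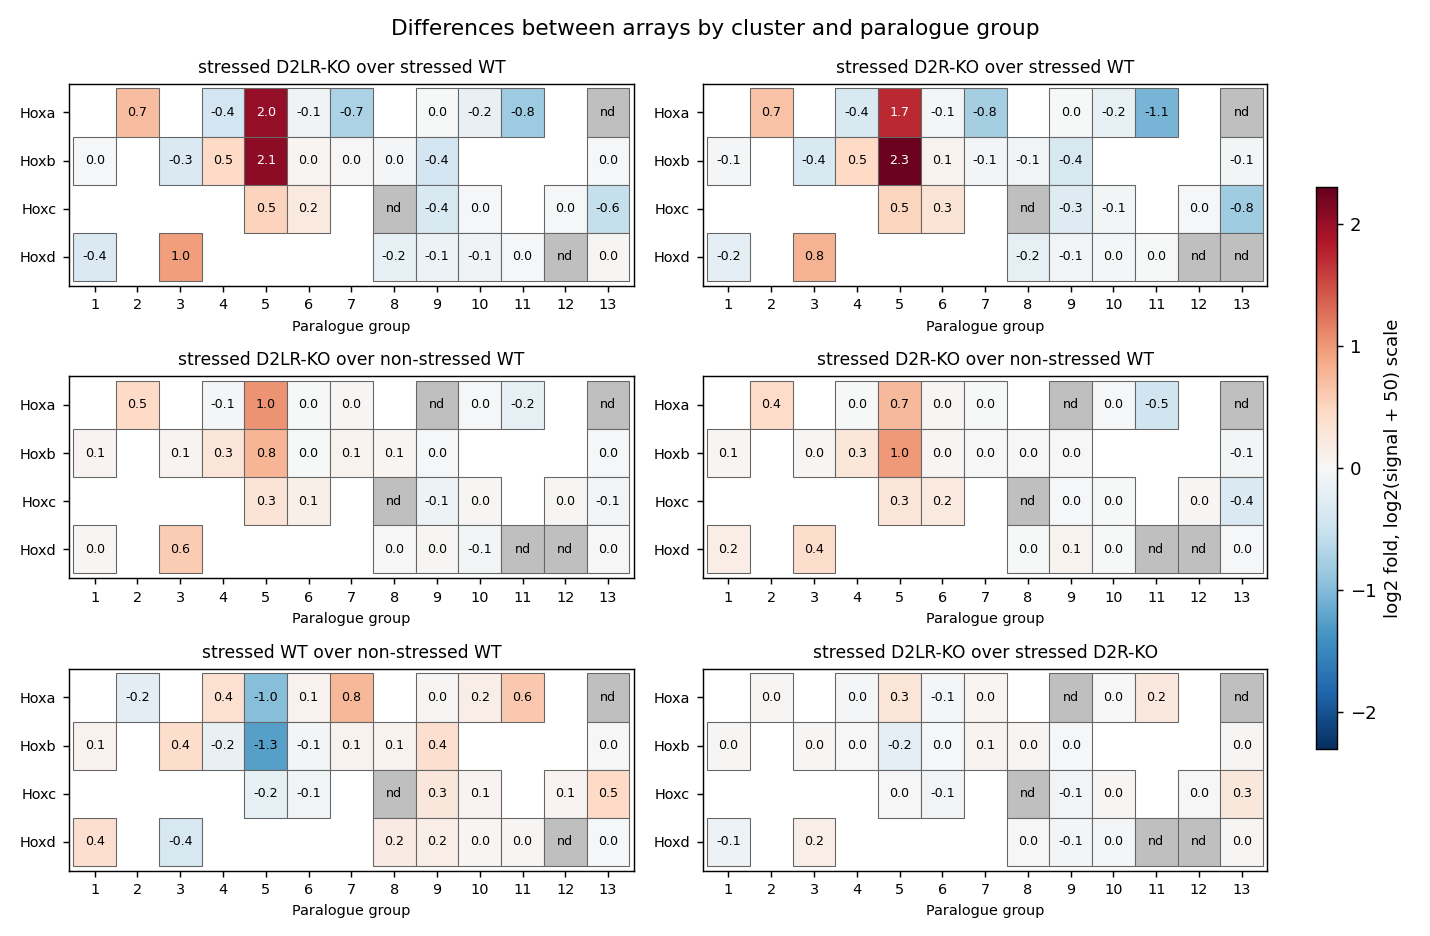
Log2 difference of each Hox probe in the 6 comparisons, laid out by cluster (rows) and paralogue group (columns), with white where there is no probe and grey, marked nd, where neither array detected it. The largest positive values, 1.7 to 2.3, are those of Hoxa5 and Hoxb5 for the knockouts over stressed WT, and no probe is 1.5-fold apart between the knockouts.

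Ordered by paralogue number, the direction of the differences from stressed WT was not the same along the clusters. Of the 24 Hox probes detected on all 4 arrays, 6 had both knockouts above non-stressed WT and non-stressed WT above stressed WT, or 25%, against 16.3% of all probes detected on all arrays. These were Hoxa2, Hoxd3, Hoxb4, Hoxa5, Hoxb5 and Hoxc5, all of groups 2 to 5. The same 6 genes had that order with the background around each spot, with median scaling and with the deposited values, where the share of all probes ran between 7.99% and 20.6%. The mirror order, both knockouts below non-stressed WT and that below stressed WT, was found for another 6 of the 24, or 25%, against 15.2% of all probes, and 5 of these 6 belong to groups 9 to 13. The mirror order depended on the processing. With the background around each spot, Hoxa4 in D2LR-KO and Hoxa10 in D2R-KO lay above non-stressed WT, by 0.04 and 0.06. With median scaling Hoxa10 and Hoxd10 lay above it in both knockouts, by 0.01 to 0.10. The members of groups 2 to 5 did not all have the first order. Hoxa4, which lies beside Hoxa5 in its cluster, had 17.1 in stressed D2LR-KO and 18.6 in stressed D2R-KO, against 32.3 in stressed WT and 19.0 in non-stressed WT. Hoxb3, beside Hoxb4, had 3.6 in stressed D2LR-KO and 3.1 in stressed D2R-KO, against 13.4 in stressed WT and 2.1 in non-stressed WT. On both probes stressed WT was the highest array.

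Stressed WT had the highest value for 17 of the 24 probes, or 70.8%, against 41.0% of all probes. That held for 9 of 9 in groups 9 to 13, 4 of 8 in groups 5 to 8 and 4 of 7 in groups 1 to 4. When the brightness around each spot served as background it held for 14 of the 24, against 31.8% of all probes, and for 8 of the 9 of groups 9 to 13. Among the posterior genes, Hoxb9 had 16.7 in stressed D2LR-KO and 17.9 in stressed D2R-KO, against 32.0 in stressed WT and 17.9 in non-stressed WT. Hoxc9 had 11.7 in stressed D2LR-KO and 14 in stressed D2R-KO, against 24.2 in stressed WT and 15.1 in non-stressed WT. On both probes the 2 knockouts and non-stressed WT were close together in these values and stressed WT alone was high. That depended on the background. With the background around each spot, Hoxb9 relative to non-stressed WT had 0.12 in stressed WT, -0.20 in D2LR-KO and -0.32 in D2R-KO. Hoxc9 had 0.07, -0.09 and -0.06. Most of the posterior differences were small. Between D2LR-KO and stressed WT 13 probes of groups 9 to 13 were compared. Of these, 12 were below 0, against 8290 of 15862 of all probes, with a median of -0.09. Of the 13, 1 was at least 1.5-fold lower, beside a background of 8.13%. Hoxa9 and Hoxd11 were detected in stressed WT and not in D2LR-KO. Hoxd13, the probe above 0, was detected in D2LR-KO and not in stressed WT. The detection rule nearly fixed the sign of each. Between D2R-KO and stressed WT 12 were compared. All 12 were below 0, against 8112 of 15878 of all probes, with a median of -0.07. Of the 12, 2 were at least 1.5-fold lower, beside a background of 8.58%. Hoxa9, Hoxb13 and Hoxd11 were detected in stressed WT and not in D2R-KO, so the detection rule nearly fixed their sign. The ranges of paralogue number were set after values had been seen, so these counts are a description.

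**Figure D4:**
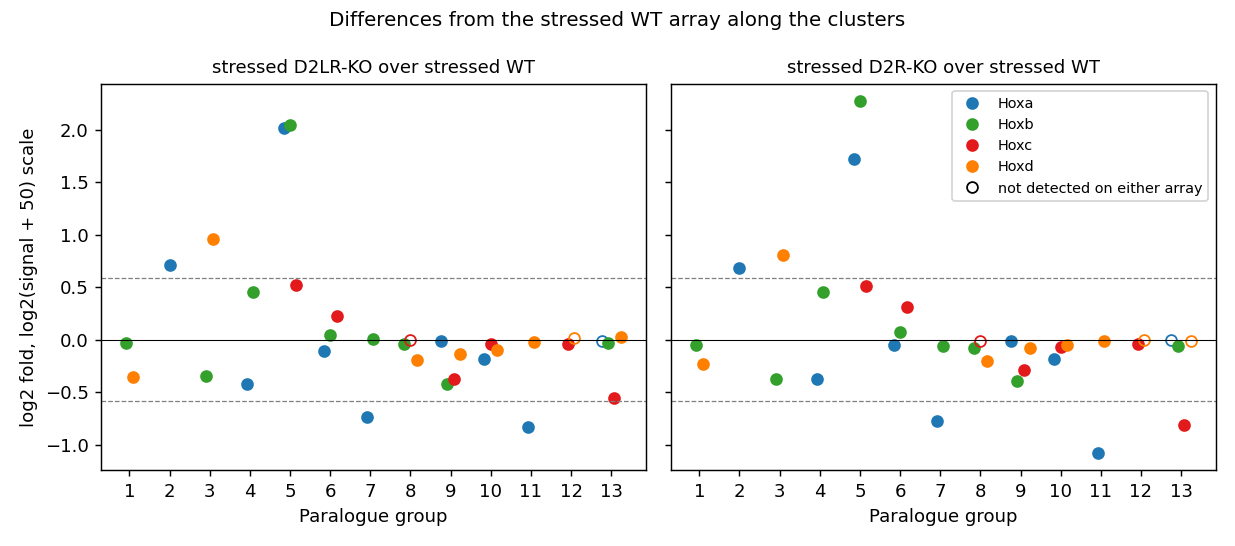
Log2 difference of each Hox probe from the stressed WT array against paralogue group, for stressed D2LR-KO (left) and stressed D2R-KO (right), coloured by cluster, with dashed lines at 1.5-fold and open circles where neither array detected the probe. Points above the upper line lie in groups 2, 3 and 5 and points below the lower line in groups 7, 11 and, for D2R-KO, 13.

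The remaining 26 Hox probes were not 1.5-fold apart in any comparison, with a range over the 4 arrays of 0.01 to 0.52 on the log2 scale. Of these, 23 were detected on at least 1 array, with a median deposited intensity of 4.9 in stressed D2LR-KO, 5.35 in stressed D2R-KO, 5.6 in stressed WT and 4 in non-stressed WT. Those nearest to the threshold were Hoxc5, at 0.52 in both knockouts relative to stressed WT, and Hoxb4, at 0.46 in D2LR-KO and 0.45 in D2R-KO. Hoxb4, which acts in the posterior hindbrain and in blood stem cells, had 17.5 in stressed D2LR-KO and 17.4 in stressed D2R-KO, against 5.6 in stressed WT and 9.0 in non-stressed WT. Hoxc6, a marker of the brachial spinal cord, had 5.2 in stressed D2LR-KO, 7.3 in stressed D2R-KO and 2.0 in non-stressed WT, and was not detected in stressed WT.

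The genes beside Hoxa5 and Hoxb5 had smaller or opposite differences, as the values of Hoxa4 and Hoxb4 above show. Hoxa6, the other neighbour of Hoxa5, had 3.1 in stressed D2LR-KO and 4.3 in stressed D2R-KO, against 6.3 in stressed WT and 3.3 in non-stressed WT, a log2 difference from stressed WT of -0.11 and -0.05. Hoxb6, which lies beside Hoxb5, had 4.9 in stressed D2LR-KO and 5.6 in stressed D2R-KO, against 4.5 in stressed WT and 5.1 in non-stressed WT. Its 4 arrays were within 0.08 of each other on the log2 scale. In the RefSeq annotation Hoxa5 overlaps Hoxa3 and the antisense gene Hoxaas3, Hoxb5 overlaps the opposite-strand gene Hoxb5os, Hoxa11 overlaps Hoxa11os, and Hoxd3 overlaps Hoxd4 and Hoxd3os1. The sources used here do not give the probes' positions, so which overlapping transcript a probe reads is not known. Hoxa2, Hoxa7 and Hoxc13 overlap no other annotated gene.

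Hox proteins bind DNA together with TALE homeodomain cofactors, the Pbx, Meis and Pknox proteins. Of 9 cofactor genes listed 6 had a probe, and none of the 6 was 1.5-fold apart in any comparison. Among all probes at most 9.24% were, in each direction. With the background around each spot 1 cofactor was higher in D2R-KO and 1 in stressed WT, both over non-stressed WT. At an offset of 16, 1 was higher in each knockout over stressed WT, and 1 was higher and 1 lower in stressed WT over non-stressed WT. Meis1 had 6.7 in stressed D2LR-KO and 10.2 in stressed D2R-KO, against 1.1 in stressed WT and 5.1 in non-stressed WT. It was singled out after its values were seen, and its log2 difference between D2LR-KO and non-stressed WT, 0.07, was -0.11 with the background around each spot.

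Of 15 upstream factors and signals, which set or limit Hox expression in the embryo, 12 had a probe. Relative to stressed WT, D2LR-KO had 0 higher and 2 lower, and D2R-KO had 1 higher and 2 lower. Among all probes 8.64% were higher and 8.13% lower for D2LR-KO, and 9.24% and 8.58% for D2R-KO. The lower pair was Cdx1 and Cdx4, which encode direct activators of posterior Hox genes. Cdx1 had 95.9 in stressed D2LR-KO and 94.3 in stressed D2R-KO, against 146.7 in stressed WT and 91.8 in non-stressed WT. Cdx4 had 21.1 in stressed D2LR-KO and 20.3 in stressed D2R-KO, against 49 in stressed WT and 22.5 in non-stressed WT. On both probes stressed WT was the highest array. Relative to stressed WT the log2 difference of Cdx1 was -0.69 in D2LR-KO and -0.78 in D2R-KO, and that of Cdx4 was -0.70 and -0.73. Taking the background around each spot gave -0.85 and -0.41 for Cdx1 and -0.47 and -0.57 for Cdx4. The higher gene was Gmnn, encoding geminin, which binds Hox proteins and Polycomb, with 86.9 in stressed D2LR-KO and 122.7 in stressed D2R-KO, against 45 in stressed WT and 75.3 in non-stressed WT. Its log2 difference of 0.89 in D2R-KO was 0.51 with the brightness around each spot as background. Relative to non-stressed WT no gene of this list was past 1.5-fold in D2LR-KO. In D2R-KO there was 1, which was lower, against 1.47% of all probes. It was Aldh1a2, which makes retinoic acid, with 65.1 in stressed D2R-KO against 110.2 in non-stressed WT, a log2 difference of -0.60 that was -0.51 with the background around each spot. Under that background the gene past the threshold in D2R-KO was Cdx1, 0.70 higher than in non-stressed WT.

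Polycomb proteins keep Hox genes silent outside their domains and Trithorax proteins keep them active within them. All 15 genes listed had a probe, and in neither knockout was any past 1.5-fold relative to non-stressed WT. In those comparisons at most 1.47% of all probes were past it in each direction. With the background around each spot D2LR-KO had 1 higher and 1 lower there, and D2R-KO 2 higher. Relative to stressed WT, 2 were higher and 2 lower in D2LR-KO, and 2 were higher and 1 lower in D2R-KO. Among all probes 8.64% were higher and 8.13% lower for D2LR-KO, and 9.24% and 8.58% for D2R-KO. Kdm6b, a demethylase that removes the Polycomb mark, had 70.8 in stressed D2LR-KO and 74 in stressed D2R-KO, against 152.7 in stressed WT and 69.4 in non-stressed WT, a log2 difference from stressed WT of -1.06 and -1.07. Bmi1, a subunit of Polycomb repressive complexes, had 24.4 in stressed D2LR-KO and 26.4 in stressed D2R-KO, against 6.7 in stressed WT and 27 in non-stressed WT. For both genes stressed WT stood alone. The background around each spot brought the Kdm6b values to -0.40 and -0.63, and those of Bmi1 to 0.20 and 0.42, beside 0.62 and 0.66 with the blank spots.

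Markers of brain regions and of other cells differed between the arrays too. In tissue RNA, fewer cells of a type and less RNA per cell cannot be told apart. Serotonergic markers were detected on every array, and their summed intensity over 10 genes was 3916 in stressed D2LR-KO, 3751 in stressed D2R-KO, 2187 in stressed WT and 2624 in non-stressed WT. Most of each sum was Ddc and Slc18a2. Relative to non-stressed WT, Ddc had 0.45 in D2LR-KO and -0.05 in D2R-KO, and Slc18a2 0.58 and 0.54, all short of the threshold. With the background around each spot these were 1.19 and 0.31 for Ddc, and 2.08 and 1.69 for Slc18a2. Of the 10, 3 were higher in D2LR-KO and 4 in D2R-KO than in non-stressed WT, and none was lower. Among all probes 0.735% were higher in D2LR-KO and 0.575% in D2R-KO. Tph2, which makes serotonin's precursor in the brain, had 151.5 in stressed D2LR-KO and 264.6 in stressed D2R-KO, against 10.7 in stressed WT and 31.4 in non-stressed WT. Slc6a4, the serotonin transporter, had 43.5 in stressed D2LR-KO and 89.6 in stressed D2R-KO, against 6.8 in stressed WT and 11.6 in non-stressed WT. Both knockout arrays were above both WT arrays for these 2 genes, while others of the list did not follow, such as Maob, at -0.23 in D2LR-KO and -0.10 in D2R-KO against non-stressed WT on the log2 scale. The Tph2 difference from non-stressed WT, 1.55 in D2LR-KO and 2.13 in D2R-KO, was 0.48 and 0.65 with the background around each spot. For Tph2 the order of the 2 WT arrays turned round with the background around each spot, stressed WT being 0.08 higher on the log2 scale.

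Of 10 pons and medulla markers outside the Hox clusters, 1 was higher than non-stressed WT in each knockout, and 1 was lower in D2LR-KO. Among all probes 0.735% were higher and 1.39% lower in D2LR-KO, and 0.575% were higher in D2R-KO. The lower gene was Glra1, a glycine receptor subunit, with 23.1 in stressed D2LR-KO against 53.2 in non-stressed WT. Its log2 difference of -0.64 was -0.51, short of the threshold, with the background around each spot. The higher gene was Slc6a5, the glycine transporter of inhibitory brainstem neurons, with 53.2 in stressed D2LR-KO and 231.9 in stressed D2R-KO, against 2.4 in stressed WT and 3.0 in non-stressed WT. The summed intensity of these 10 genes was 220.8 in stressed D2LR-KO, 466.6 in stressed D2R-KO, 263.7 in stressed WT and 206.2 in non-stressed WT, and their median log2 difference from non-stressed WT was 0.03 in D2LR-KO and 0.07 in D2R-KO. Phox2a, a defining gene of noradrenergic and visceral motor neurons, passed the detection limit in stressed D2R-KO alone, at 1.4, beside 0.7 in stressed WT. Both readings were near the blank spots. Its log2 difference in D2R-KO was 0.04 from either WT array, and 0.004 with the background around each spot. Of 12 forebrain markers 8 were lower in each knockout than in non-stressed WT, with sums of 2454 in stressed D2LR-KO, 2345 in stressed D2R-KO, 7531 in stressed WT and 6896 in non-stressed WT. Among all probes 1.39% were lower in D2LR-KO and 1.47% in D2R-KO than in non-stressed WT. The 11 midbrain and isthmus markers summed to 1503 in stressed D2LR-KO, 1324 in stressed D2R-KO, 1922 in stressed WT and 1698 in non-stressed WT. Th and Slc6a3 made up most of each of these sums. The median log2 difference of the 11 from non-stressed WT was -0.07 in D2LR-KO and -0.02 in D2R-KO. The 6 choroid plexus markers summed to 222.9 in stressed D2LR-KO, 46.6 in stressed D2R-KO, 5763 in stressed WT and 13080 in non-stressed WT. Nearly all of that was Ttr, with 193.1 in stressed D2LR-KO, 20.3 in stressed D2R-KO, 5720 in stressed WT and 12880 in non-stressed WT. Between either knockout and stressed WT 1 of the 6 was past 1.5-fold, Ttr, which was lower. Among all probes 8.13% were lower than stressed WT in D2LR-KO and 8.58% in D2R-KO. Relative to non-stressed WT, 5 of the 6 were lower in D2LR-KO, 5 in D2R-KO and 5 in stressed WT. The background was 1.39%, 1.47% and 8.05% of all probes lower. The 6 pituitary markers summed to 94.7 in stressed D2LR-KO, 582.4 in stressed D2R-KO, 119.4 in stressed WT and 86.9 in non-stressed WT, with Tshb detected on no array. The part of these marker differences in those of the Hox genes was not tested.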

How the data were processed

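Toray single-colour arrays of dorsal raphe RNA were analysed, 1 pooled array per group, per the labels. RNA was extracted with a Qiagen RNeasy kit, amplified with the Ambion MessageAmp II kit and labelled with Cy5, per the labels' protocols. Each scanner file gives the median intensity at 635 nm of every spot and around it, from 3 scans, per the file headers. The authors' deposited intensity table can be rebuilt from the scanner values: a constant of its own (36.7 to 38.8) is subtracted on each array and the rest is divided by a factor of 1.51 to 2.05. It lacks a value for 1499 to 1540 probes per array. The sources used here describe neither the making of that table nor the way the scans were merged.

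Background was corrected with limma 3.58.1 in R 4.3.3 (normexp, the blank spots as negative controls, offset 50), followed by log2 of the authors' spot intensity and quantile normalization over the 4 arrays. The brightness around the spots followed the spots (r = 0.876 to 0.958) and served as an alternative background. Other alternatives were median scaling, an offset of 16, the deposited values as log2(value + 25), other filters on detection and a 2-fold threshold. Tables and figures were made in Python 3.11.15 with numpy 2.4.6, pandas 2.3.3 and matplotlib 3.10.9. The procedure was tested on simulated data. Only probes brighter than most Hox spots were changed there, so the recovery of changes in dim probes was not tested.

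Genes were named by the series' probe table, in which 16631 of 23473 probes have 1 symbol and 6842 have none here, and 9 probes with a spot marked not usable were left out. Values on every array are given for Hox probes at least 1.5-fold apart in any of the 6 comparisons and detected on at least 1 array, 7 in all. Other genes were named when past 1.5-fold, or as Tph2 and Slc6a4, or where the text singles them out after their values were seen. From each list at most 6 genes could be named by this rule, and not all of them are. The members, lists, ranges and tests were chosen with earlier results of these data known. Between arrays, log2 differences of repeated control spots had an SD of 0.0128 to 0.0544 for negative controls near background and of 0.0966 to 0.227 for positive controls with spots of 3887 or more, which leaves the range of most Hox spots uncovered and says nothing of mice.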

Additional observations from a re-analysis of the deposited data

How the results depend on the processing

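No paired analysis was possible because each group has 1 array, and for the same reason no replicate could be left out. The 7 named Hox genes kept their direction, each in its comparison with the largest difference, with median scaling, the deposited values and the brightness around each spot. An offset of 16 leaves every direction as it is by construction. They stayed past 1.5-fold in 7 of 7 with median scaling and the deposited values, and in 5 of 7 with the brightness around each spot as background, where Hoxa2 had 0.42 and Hoxc13 -0.31. The number of Hox genes past the threshold moved more. With the brightness around each spot it was 2 for stressed WT over non-stressed WT (4 in the report), 0 for D2LR-KO over non-stressed WT (2 in the report) and 4 for D2R-KO over stressed WT (7 in the report). With an offset of 16, which enlarges the folds of dim probes by construction, it was 10 for stressed WT and 5 for each knockout over non-stressed WT, and 14 for D2LR-KO and 13 for D2R-KO over stressed WT. For these other ways of processing the share of all probes past 1.5-fold is not given here. The counts under them therefore cannot be set against probes at large. At 2-fold it was 1 for each stressed group over non-stressed WT, lower in stressed WT (background 2.12%) and higher in D2LR-KO (0.108%) and D2R-KO (0.114%). Over stressed WT it was 2 for D2LR-KO (6 in the report), both higher (background 2.58%), and 3 for D2R-KO, 2 higher (2.7%) and 1 lower (2.54%). Between the knockouts it was 0 under each alternative run. The Hox medians under other settings lay between -0.16 and 0.21. With median scaling the median was 0.21 for stressed WT over non-stressed WT (0.07 in the report) and 0.175 for D2LR-KO over non-stressed WT (0.03 in the report). Over all probes it was 0.00 and 0.02. Hoxa13, Hoxc8 and Hoxd12, detected on no array, had 0.12 to 0.16 and 0.17 to 0.19 there. Positive values of this size thus also arose without detected signal. D2LR-KO had 3 Hox genes past 1.5-fold over non-stressed WT with median scaling, with the deposited values and with the 3 other arrays normalized without stressed WT, Hoxd3 joining in each. Most Hox spots lie below the array median, where the nearness to the blank spots limits the precision of a fold.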
